A study of Mus musculus with 4 samples.

Results

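Cytosolic ribosomal proteins are the protein building blocks of the ribosome that translates nuclear-encoded mRNA. On the arrays described here they were picked by gene symbol alone, as symbols made of *Rps* or *Rpl* and a number, together with *Rpsa*, *Rplp0*, *Rplp1* and *Rplp2*. Ribosomal protein S6 kinases and pseudogenes were left out. This gave 61 genes of the 19938 that had a probe set annotated with their symbol only, namely 23 genes of the small subunit and 38 of the large subunit. Of the 61 genes, 54 encode standard ribosomal proteins and 7 are like-named paralogs (*Rps4l*, *Rps27l*, *Rpl3l*, *Rpl7l1*, *Rpl10l*, *Rpl32l* and *Rpl39l*).

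Transcripts were measured in wild type CD8+ T cells isolated from spleen and lymph node of C57BL/6 mice and kept in culture for 2 days. Tc17 cells, which make IL-17, were given IL-6 and TGF-β on top of IL-2 and anti-IFN-γ. CTLs (cytotoxic T lymphocytes) were given IL-2 and anti-IFN-γ without IL-6 and TGF-β. The study's methods prime murine Tc17 cells with anti-CD3 and anti-CD28 antibodies, and do not describe the culture of CTLs. Each group had 2 biological replicates with 1 array each, and whether these came from separate mice is not stated. All p-values therefore rest on the spread of these 4 samples, which may be technical. Values are RMA levels on a log2 scale, differences are Tc17 minus CTL, and 1 unit is a 2-fold difference.

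A growing T cell spends a large part of its biosynthesis on ribosomes, and the proteins of both subunits are needed in near-equal amounts. Their mRNAs are stable and abundant, and most begin with a C followed by an unbroken run of pyrimidines, the 5′ terminal oligopyrimidine (TOP) motif. Through this motif, mTORC1 and the RNA-binding protein LARP1 set how well these mRNAs are translated, a step that transcript levels do not report. Beyond the ribosome, some ribosomal proteins bind MDM2, the ubiquitin ligase of p53, when ribosome assembly is disturbed.

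The start regions of ribosomal protein genes carried such runs more often than those of other genes. In RefSeq's promoter table (GRCm38.p6), 49 of the 61 genes had a window around an annotated transcription start, and in 10 of them (20.4%) the start base was a C that opened a run of at least 5 C or T, against 3.01% of all 27025 genes with a window and 2.99% of the 11808 of them that were tested on the arrays. CCGGAAG, a motif bound by ETS factors, was found on either strand of the promoter window in 38.8% of the ribosomal protein genes, against 9.93% of all genes with a window and 17% of those tested. CACGTG, the E-box that MYC binds, was found in 10.2% of the ribosomal protein genes, against 8.09% of all genes and 10.9% of those tested, a share close to the background. These shares describe sequence only, and an annotated start can lie some bases away from the one that is used. Windows of 5 genes with a run are printed 5′ to 3′, from 10 bases before the annotated start, with the run in capitals. They are *Rps10* (chr17:27635225-27635254, minus strand), *Rps18* (chr17:33955646-33955675, minus), *Rps6* (chr4:86857348-86857377, minus), *Rpl28* (chr7:4792955-4792984, plus) and *Rpl38* (chr11:114668570-114668599, plus).
Rps10: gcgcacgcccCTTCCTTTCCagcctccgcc
Rps18: cacttccgctCTCTCTTCCacaggaggcct
Rps6: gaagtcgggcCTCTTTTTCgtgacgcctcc
Rpl28: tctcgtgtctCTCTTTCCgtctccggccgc
Rpl38: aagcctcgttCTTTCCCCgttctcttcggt

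The same windows of the 3 genes that passed the test between Tc17 cells and CTLs, described below, held no run at the annotated start. They are *Rps27l*, with 2 annotated starts (chr9:66946076-66946105 and chr9:66946403-66946432, both plus strand), *Rpl12* (chr2:32961702-32961731, plus) and *Rpl7l1* (chr17:46782637-46782666, minus). That the run was not found says only that these letters are not at these positions.
Rps27l, start 1: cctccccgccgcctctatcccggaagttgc
Rps27l, start 2: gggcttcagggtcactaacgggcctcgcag
Rpl12: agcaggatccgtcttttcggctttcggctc
Rpl7l1: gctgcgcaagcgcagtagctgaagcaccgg

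Transcripts of the standard ribosomal proteins differed little between Tc17 cells and CTLs. The paralogs *Rps27l* and *Rpl7l1* and the standard gene *Rpl12* were called lower in Tc17 cells. Their share was near that of all genes, and only *Rps27l* was called under every alternative tried. Of the 59 ribosomal protein genes bright enough to be tested, 3 fell in Tc17 cells (*Rps27l*, *Rpl7l1* and *Rpl12*), none rose, and 56 did not pass limma at an adjusted p of 0.05. Before adjustment 4 genes had a p under 0.05, the fourth being *Rpl30*. Among all 14953 genes tested, 15.7% passed, 7.44% lower and 8.22% higher in Tc17 cells, and the share of ribosomal protein genes that fell, 3 of 59 or 5.08%, was near that background. The remaining 2 genes, *Rpl3l* and *Rpl39l*, were too dim to test, at 2.60 and 2.65 in Tc17 cells against 2.46 and 2.59 in CTLs for *Rpl3l*, and at 2.55 and 2.38 in Tc17 cells against 2.52 and 2.44 in CTLs for *Rpl39l*.

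The median difference over the 59 genes was -0.025, against 0.0195 over all genes tested, with 34 genes below 0 and 25 above. The differences had an SD of 0.203 among ribosomal protein genes and 0.416 among all genes, and 54 of 59 lay within 0.25 of 0, against 65.5% of all genes. The 95% interval of the difference stayed within 1.5-fold in either direction for 55 of the 59 genes and for 68.6% of all genes. Both Tc17 arrays lay on one side of both CTL arrays for 18 genes (30.5%), 11 lower and 7 higher, against 54.4% of all genes, 24.8% lower and 29.6% higher. The limits of this comparison are the 2 arrays per group and the between-array normalization, which hides a shift shared by all transcripts. In such bulk samples, fewer cells of a type and less RNA per cell cannot be told apart.

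**Figure D1:**
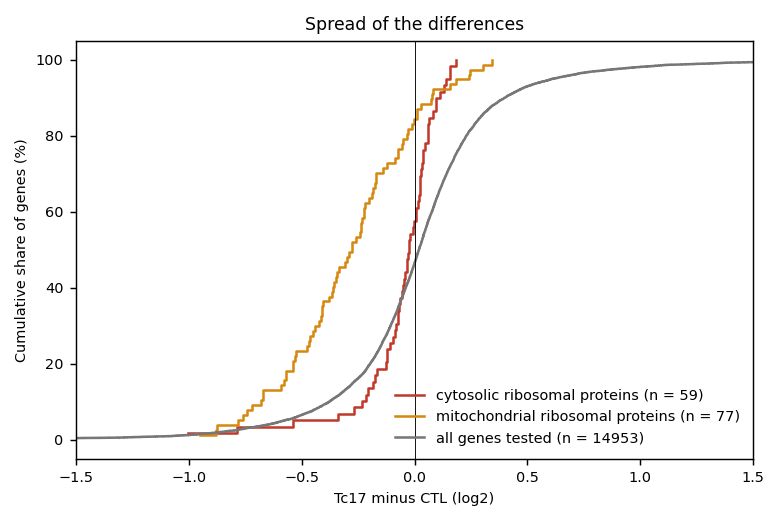
Cumulative share of genes (%) against the Tc17 minus CTL difference (log2, shown from -1.5 to 1.5) for 59 cytosolic ribosomal protein genes, 77 mitochondrial ribosomal protein genes and all 14953 genes tested. The curve of the cytosolic genes is steep around its median of -0.025, while that of the mitochondrial genes lies further left, with a median of -0.28.

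Ribosomal protein probe sets were among the brightest on the arrays, with a median level of 10.29 against 4.37 for all genes tested. Of the 54 standard genes, 41 had a mean level of 9 or more, a division made after the values were seen. None of these 41 passed the test, their differences ran from -0.17 to 0.16 with a median of 0.0042, and their 95% intervals together spanned -0.47 to 0.43. Among all 284 genes of that brightness, 25.4% passed, 36 lower and 36 higher. By level, none of 6 ribosomal protein genes between 9 and 10 passed, against 34.1% of 170 other genes, and none of 20 between 10 and 11, against 26.4% of 53 other genes. Above 11, none of 15 ribosomal protein genes and none of 20 other genes passed, and 19 of those 20 other genes also lay within 0.25 of 0, so the brightest ribosomal protein genes did not stand apart from other genes of their brightness. The 13 standard genes whose own probe set lay under 9 were more scattered, with a median of -0.12 and differences from -1.01 to 0.16. Some of them were brighter on probe sets shared with other symbols, such as *Rpl30* at 11.32 to 12.01. The level is thus that of the probe set used and may not be that of the gene.

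**Figure D2:**
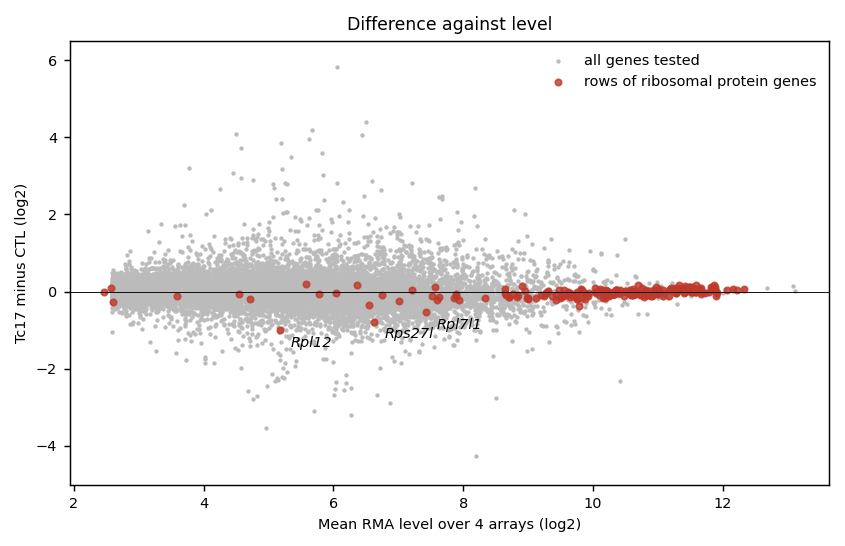
Tc17 minus CTL difference (log2) against the mean RMA level over the 4 arrays (log2) for all genes tested (grey) and for the 217 probe sets annotated with 1 ribosomal protein symbol (red). The ribosomal protein probe sets gather near 0 at levels above 9, and the 3 genes that fell in Tc17 cells, named in the plot, lie between 5 and 8.

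In the small subunit, *Rps27l* fell and none of the other 22 genes passed the test. The 21 standard small-subunit genes had differences from -0.23 to 0.16 with a median of -0.020. *Rps6* encodes a substrate of S6 kinase, and phosphorylation of this protein, which arrays do not measure, is the classical readout of mTORC1 activity. Its transcript was at 11.96 and 11.85 in Tc17 cells and 11.84 and 11.93 in CTLs. The groups overlapped, with a difference of 0.02 ± 0.13 (SE). *Rpsa*, which binds laminin outside the ribosome, was at 11.51 and 11.45 in Tc17 cells and 11.35 and 11.34 in CTLs. Both Tc17 arrays were above both CTL arrays by this small margin, with a difference of 0.14 that did not pass limma (adjusted p = 0.548). The other 4 *Rpsa* probe sets, which were dimmer, differed by -0.10 to 0.04, and the mean over all 5 differed by 0.01, so the direction was not settled. *Rps18*, a protein of the subunit's head, was at 11.95 and 11.93 in Tc17 cells and 11.76 and 11.81 in CTLs (adjusted p = 0.486 in limma). *Rps19*, the gene most often mutated in Diamond-Blackfan anemia, had the lowest difference of the standard small-subunit genes, at 6.94 and 6.86 in Tc17 cells and 7.21 and 7.06 in CTLs. This difference of -0.23 ± 0.13 (SE) did not pass either (adjusted p = 0.291 in limma), and 3 shared probe sets of like brightness that list *Rps19* beside other symbols differed by only -0.06 to -0.04. None of the 10 small-subunit head genes tested passed, with a median of -0.027, and none of the 8 tested genes known from Diamond-Blackfan anemia, with a median of -0.038.

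**Figure D3:**
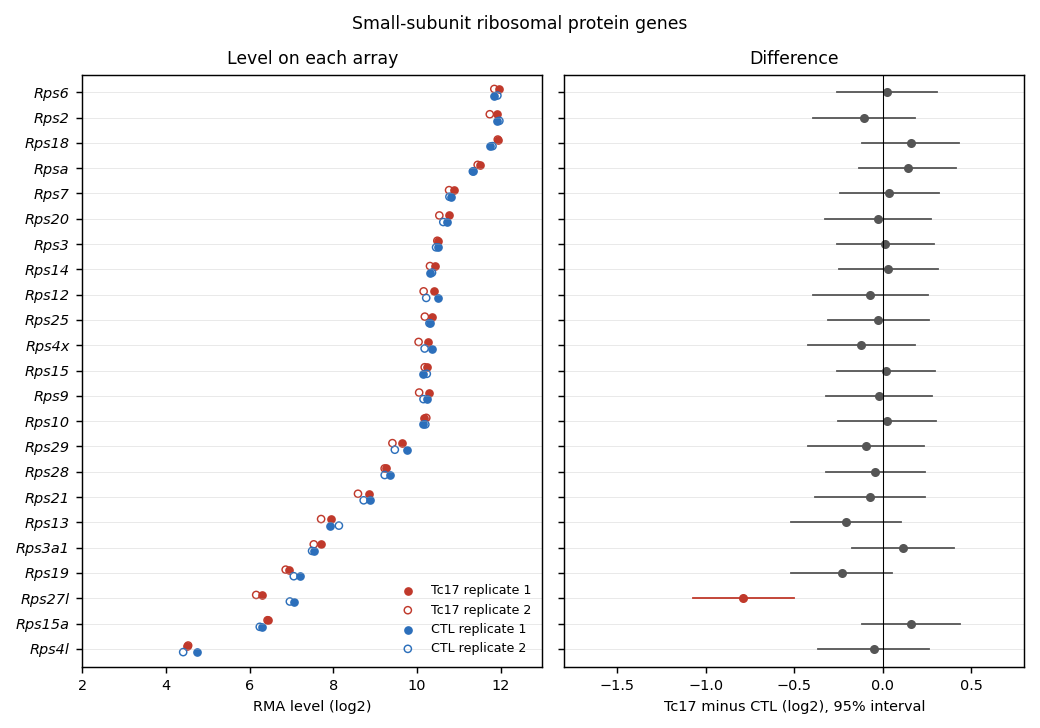
The 23 small-subunit genes ordered by mean level, with the RMA level (log2) on each of the 2 Tc17 and 2 CTL arrays at left and the Tc17 minus CTL difference (log2) with its 95% interval from limma at right. Red marks the gene that passed the test, *Rps27l*, at -0.79, while the points of all 4 arrays nearly coincide for the bright genes.

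Large-subunit genes gave a like picture, with 2 of 36 tested genes lower in Tc17 cells and a median of -0.029. *Rplp0*, *Rplp1* and *Rplp2* form the stalk that recruits elongation factors, and none of them passed. *Rplp0* was at 12.22 and 12.14 in Tc17 cells and 12.16 and 12.08 in CTLs, and *Rplp1* at 11.92 and 11.84 in Tc17 cells and 12.08 and 11.77 in CTLs. For both genes the groups overlapped. The dim probe set of *Rplp2* was at 4.65 and 4.60 in Tc17 cells and 4.84 and 4.78 in CTLs, with a difference of -0.18 (adjusted p = 0.405 in limma).

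*Rpl5* and *Rpl23*, which can bind MDM2, did not pass, and their groups overlapped. *Rpl5* was at 11.06 and 10.87 in Tc17 cells and 10.91 and 11.01 in CTLs, and *Rpl23* at 10.82 and 10.78 in Tc17 cells and 10.79 and 10.79 in CTLs. Their differences of 0.0042 and 0.0086 had 95% intervals of -0.29 to 0.30 and -0.27 to 0.28. *Rpl11*, another large-subunit protein that can bind MDM2, had no probe set of its own. Of the proteins lining the exit tunnel, 4 were tested and none passed. *Rpl10*, which joins the large subunit last and completes it, was the brightest ribosomal protein gene, at 12.40 and 12.32 in Tc17 cells and 12.31 and 12.28 in CTLs, with a difference of 0.06. *Rpl29* had the highest difference of the standard large-subunit genes, 0.13, at 8.98 and 8.97 in Tc17 cells and 8.83 and 8.86 in CTLs, and did not pass (adjusted p = 0.573 in limma). On 35 brighter shared probe sets that list *Rpl29* beside other symbols, differences ran from -0.09 to 0.10 with a median of 0.024.

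**Figure D4:**
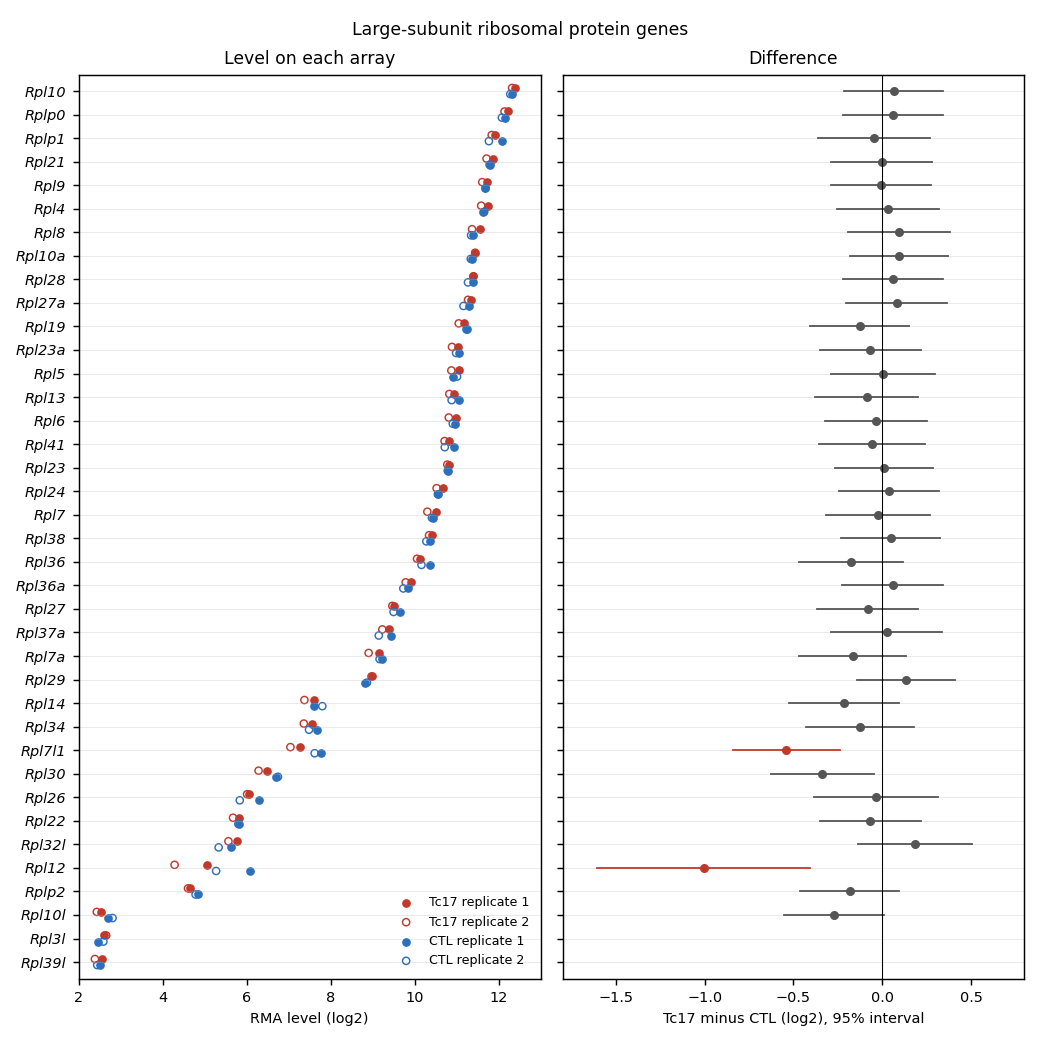
The 38 large-subunit genes ordered by mean level, with the RMA level (log2) on each of the 2 Tc17 and 2 CTL arrays at left and the Tc17 minus CTL difference (log2) with its 95% interval from limma at right (no interval for the 2 genes too dim to test). Red marks *Rpl7l1* and *Rpl12*, whose intervals lie below 0, while most other points lie near 0.

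Among the genes that fell, *Rps27l* was the most secure. It encodes a near-copy of RPS27 and is known as a p53 target whose product binds MDM2. Its level was 6.29 and 6.16 in Tc17 cells and 7.07 and 6.96 in CTLs, so both Tc17 arrays lay well below both CTL arrays. The difference was -0.79 ± 0.13 (SE), a 1.73-fold lower level (adjusted p = 0.00184 in limma), and it passed under every alternative tried. With an adjusted p below 0.01 in limma and a difference of 0.75 or more it was the only ribosomal protein gene left, against 6.15% of all genes. *Rps27* itself had no probe set of its own. Of 6 genes of the p53 response, a list chosen with earlier results of these data known, 3 were tested and none passed. All 3 were lower on both Tc17 arrays than on both CTL arrays, narrowly for *Phlda3* and *Ccng1*, against 24.8% of all genes. A part of p53 in the difference of *Rps27l* was not tested. *Mdm2* was at 6.05 and 6.31 in Tc17 cells and 6.39 and 6.62 in CTLs (adjusted p = 0.184 in limma), and *Phlda3* and *Ccng1* differed by -0.27 and -0.07.

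*Rpl7l1* encodes a relative of RPL7. It was at 7.26 and 7.04 in Tc17 cells and 7.76 and 7.62 in CTLs, which did not overlap. The difference was -0.54 ± 0.14 (SE), or 1.45-fold lower (adjusted p = 0.0203 in limma). Without the second Tc17 array it was -0.43 (adjusted p = 0.149 in limma) and without the first CTL array -0.47 (adjusted p = 0.116 in limma), so that the call rested on both. *Rpl7* itself was at 10.50 and 10.30 in Tc17 cells and 10.44 and 10.41 in CTLs, with a difference of -0.02.

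*Rpl12*, a protein at the base of the stalk, had a single dim probe set of its own. It was at 5.06 and 4.28 in Tc17 cells and 6.09 and 5.27 in CTLs, so that the arrays of each group lay far apart but the groups did not overlap. The difference was -1.01 ± 0.27 (SE), or 2.01-fold lower (adjusted p = 0.0278 in limma). It was not called without the second Tc17 array (-0.62, adjusted p = 0.203 in limma) or without the first CTL array (-0.60, adjusted p = 0.196). Robust moderation with an intensity trend also ended the call (adjusted p = 0.0571 in limma). Other alternatives strengthened it. Under a replicate block the adjusted p in limma was 0.000751, though the replicate numbers were not taken to pair the samples. Without the first Tc17 array the difference was -1.40, and without the second CTL array -1.41. A further 8 probe sets listed *Rpl12* beside another symbol. On 7 of them, at levels from 10.32 to 11.39, the difference ran from -0.40 to -0.26, and on the last, which also carried the symbol of a small nucleolar RNA, it was -1.42 at a level of 5.29. Which transcript these shared probe sets report cannot be told.

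The other 3 paralogs tested on probe sets of their own did not pass. *Rpl10l*, known as a testis form of *Rpl10*, was close to the floor, at 2.53 and 2.43 in Tc17 cells and 2.69 and 2.80 in CTLs (adjusted p = 0.205 in limma). *Rps4l* was at 4.51 and 4.53 in Tc17 cells and 4.74 and 4.41 in CTLs, and its relative *Rps4x* at 10.26 and 10.04 in Tc17 cells and 10.35 and 10.19 in CTLs. *Rpl32l* had the highest difference of all ribosomal protein genes, 0.18 ± 0.15 (SE), at 5.77 and 5.56 in Tc17 cells and 5.63 and 5.33 in CTLs, and the groups overlapped. *Rpl22l1*, the paralog of *Rpl22*, was listed only on 2 probe sets shared with another symbol, at 5.06 and 4.59 in Tc17 cells and 5.49 and 5.36 in CTLs on one and at 5.07 and 4.65 in Tc17 cells and 5.52 and 5.34 in CTLs on the other. Both shared probe sets were lower on each Tc17 array than on each CTL array, by 0.60 and 0.57 on average, and cannot be assigned to *Rpl22l1* alone. With shared probe sets admitted to the fit, the brighter of them passed limma as lower in Tc17 cells. *Rpl22*, an RNA-binding protein that is needed for αβ T cell development in mice, was at 5.81 and 5.67 in Tc17 cells and 5.82 and 5.80 in CTLs, a difference of -0.07.

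The 61 genes had 217 probe sets of their own, of which 12 repeated the values of another probe set of the same gene on all 4 arrays and were counted once. This left 205, with more than 1 for 38 genes and up to 11 for a single gene. Within these 38 genes the differences spread over a median width of 0.068 and a largest width of 0.351 for *Rps9*, while the levels spread over a median of 0.753. Of the 205, 199 lay within 0.25 of 0. Probe sets shared with other symbols numbered 237 and turned some values round. *Rpl30* had a difference of -0.34 ± 0.13 (SE) on its own dim probe set, at 6.48 and 6.28 in Tc17 cells and 6.70 and 6.74 in CTLs (adjusted p = 0.121 in limma), but 0.04 to 0.07 on 10 bright shared ones. *Rps15a* differed by 0.16 on its own probe set, at 6.44 and 6.43 in Tc17 cells and 6.31 and 6.25 in CTLs, and by -0.20 and -0.19 on 2 shared ones. The 16 ribosomal protein symbols found only on shared probe sets, *Rpl22l1* among them, had differences from -0.57 to 0.17 with a median of 0.0046, and 14 of 16 lay within 0.25. Cross-reaction between genes, pseudogenes and paralogs was not measured.

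Replicates differed from each other in a shared way. On the first Tc17 array 56 of the 59 genes tested were brighter than on the second, by a median of 0.12, and on the first CTL array 45 of 59 were brighter than on the second, by a median of 0.061. Over all 14953 genes tested, 8193 were brighter on the first Tc17 array and 8072 on the first CTL array. The corresponding medians over all genes were 0.0245 and 0.0186. Among the 284 genes with a level of 9 or more, these counts were 187 and 169, with medians of 0.0587 and 0.0259. The difference between the groups, with its median of -0.025, was thus smaller than the median gap between replicates of either group.

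Mitochondrial ribosomal proteins, which build the separate ribosome of mitochondria, were measured on the same arrays. Of 77 genes tested, 19 fell in Tc17 cells (24.7%, against 7.44% of all genes) and none rose, while 3 of 59 cytosolic genes fell and none rose. Their median difference was -0.28 at a median level of 6.16, and 49 of the 77 genes were lower on both Tc17 arrays than on both CTL arrays, against 24.8% of all genes. The difference between both lists of genes was not tested, and their levels differ.

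Dedicated chaperones escort single ribosomal proteins to the nascent ribosome, as known best from yeast. Of 5 listed, 3 fell in Tc17 cells, against 7.44% of all genes. The list was chosen with earlier results of these data known, so this share only describes the listed genes. *Ltv1*, an assembly factor of the small subunit, was at 5.74 and 5.56 in Tc17 cells and 6.71 and 6.53 in CTLs, lower by 0.97 ± 0.14 (SE, adjusted p = 0.000663 in limma). *Tsr2*, the escort of RPS26, was at 5.15 and 4.64 in Tc17 cells and 5.67 and 5.87 in CTLs (-0.87, adjusted p = 0.00502 in limma). *Grwd1*, the escort of RPL3, was at 5.88 and 5.53 in Tc17 cells and 6.47 and 6.46 in CTLs (-0.76, adjusted p = 0.00443 in limma). Of the 5 chaperones, 3 were lower and 1 (*Aamp*) was higher on both Tc17 arrays than on both CTL arrays. Over all genes these shares were 24.8% and 29.6%. The 3 lower ones are those that passed limma, so their lack of overlap is no separate support. *Aamp*, the chaperone of RPL10, differed by 0.16 and did not pass. *Heatr3*, the chaperone of RPL5 and RPL11, differed by 0.17 on the brighter of its 2 probe sets, which did not pass, and by -0.65 on the other, so its direction was not settled.

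Among 9 tested genes that regulate TOP mRNAs, 3 fell and none rose, against 7.44% lower and 8.22% higher among all genes. This list, too, was chosen with earlier results of these data known, so the share only describes the listed genes. *Larp1*, which binds the TOP motif, was at 7.78 and 7.60 in Tc17 cells and 8.83 and 8.53 in CTLs, lower by 0.99 ± 0.15 (SE, adjusted p = 0.00091 in limma). *Rheb*, the GTPase that activates mTORC1, was at 6.08 and 5.62 in Tc17 cells and 6.49 and 6.60 in CTLs (-0.69, adjusted p = 0.013 in limma). *Eif4ebp1*, the translational repressor that mTORC1 switches off, was at 6.95 and 7.02 in Tc17 cells and 7.54 and 7.51 in CTLs (-0.54, adjusted p = 0.0131 in limma). *Rheb* was not called without the second Tc17 array (-0.46, adjusted p = 0.115 in limma) or the second CTL array (adjusted p = 0.0674), nor *Eif4ebp1* without the first Tc17 array (adjusted p = 0.0643) or the first CTL array (adjusted p = 0.0646). *Mtor* differed by -0.04 and did not pass. Of 13 other genes with TOP mRNAs, *Npm1*, a nucleolar chaperone, fell with -0.47 close to the threshold (adjusted p = 0.0495 in limma), *Vim*, an intermediate filament protein, rose with 1.36 (adjusted p = 4.7e-05 in limma), and 11 did not pass, with a median of 0.13 over the list. The call of *Npm1* was lost without the second Tc17 array (-0.30, adjusted p = 0.346 in limma), the first CTL array (adjusted p = 0.144) or the second CTL array (adjusted p = 0.145), and also when no genes were filtered out (adjusted p = 0.0592), after cyclic loess (adjusted p = 0.0667) or under a replicate block (adjusted p = 0.0507). *Fau*, which encodes RPS30 and lies outside the symbol rule, was at 10.03 and 10.05 in Tc17 cells and 10.00 and 9.98 in CTLs, with a difference of 0.05. Of the 9 standard ribosomal protein genes whose annotated start opened a pyrimidine run, the median difference was 0.024, and of the 34 without one -0.023.

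The cultures carried the transcripts of their labels. *Il17f* and *Ifng* differed in opposite directions, and all 5 CD8 T cell markers were bright, at levels from 8.30 to 10.13. The cultures also differed in these markers, with 4 of the 5 called higher in Tc17 cells, against 8.22% of all genes. These 4 differed by 0.67 to 1.00. *Cd4* was at 3.06. Of the markers of other cells, neither of 2 tested B cell genes passed. *Cd79b* was higher on both Tc17 arrays by 0.43 (adjusted p = 0.0619 in limma), and *Cd79a* differed by -0.02. Of 3 tested myeloid genes 1 passed, *Cd68*, at 5.32 and 4.89 in Tc17 cells and 4.28 and 3.91 in CTLs. The dim *Csf1r* was lower on both Tc17 arrays by 0.25 (adjusted p = 0.223 in limma), and the dim *Itgam* differed by 0.07. *Lyz2* and *Adgre1* were too dim to test. The part of such cells in the ribosomal protein values was not tested.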

How the data were processed

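Total RNA was hybridised to whole-transcript arrays, 1 per sample. The authors deposited values made with RMA, taken here as log2. For their version, settings and log base the sources used here give nothing. RMA equalises the distributions of arrays, so a shift of all transcripts cannot be seen, and differences of dim probe sets are compressed. No detection calls were used.

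Of 35557 rows, 21789 had 1 symbol in the platform annotation, 1621 had several and 12147 had none. For each of 19938 genes, the single-symbol row with the highest mean was used. The 4985 genes under the 25th percentile of means (2.59) were left out. Both groups were fitted with lmFit and eBayes of limma 3.58.1 under R 4.3.3, two-sided, unpaired, with Benjamini-Hochberg adjustment over all 14953 genes and a threshold of 0.05. There were 2 residual degrees of freedom, and the prior added 8.98. An exact permutation test of 2 against 2 arrays cannot go below 0.333. The number of arrays limits the precision.

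Members and gene lists were chosen with earlier results of these data known. The genes named were those past the threshold, the 5 highest and the 5 lowest differences, the 3 brightest and 3 dimmest, the genes of the stalk, MDM2-binding and paralog lists with the paralogs' parents, *Rps6* and *Rpsa*, and of the other lists the genes past the threshold or the one with the smallest p. *Rps19*, *Rps9*, *Phlda3*, *Ccng1*, *Mtor*, *Aamp* and *Heatr3* that fall outside it, the ranges of level, and the genes whose start is printed were chosen after values were seen. Start windows run from 10 bases before to 20 bases from RefSeq's start, and motifs were searched from 250 bases before to 50 after it. The build of the array design was not used. Plots were made with Python 3.11.15 and matplotlib 3.10.9.

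The alternatives were other filters, moderation, scalings, choices of row, a replicate block, a stricter threshold, rows with several symbols, and each array left out in turn.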

Additional observations from a re-analysis of the deposited data

How the results depend on the processing

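No ribosomal protein gene was called higher in Tc17 cells under any alternative, and *Rps27l* was called lower under all of them. At the stricter threshold (adjusted p below 0.01, difference of 0.75 or more) 919 genes were called in all and 1 ribosomal protein gene was lower. Median centring of each array shifted the median of all genes to -0.0454, against 0.0195 as deposited, and gave medians of -0.0903 for small-subunit and -0.0937 for large-subunit genes. Cyclic loess turned the sign of the medians, to 0.016 for all ribosomal protein genes, 0.0189 for small-subunit and 0.009 for large-subunit genes, so their direction is not settled. With each array left out in turn, the number of genes called ranged from 1421 to 1924 and that of ribosomal protein genes lower in Tc17 cells from 1 to 3. The median of ribosomal protein genes ranged from -0.0874 to 0.0518, of small-subunit genes from -0.0612 to 0.0562 and of large-subunit genes from -0.0884 to 0.0409. The lowest counts, 1 ribosomal protein gene each, came without the second Tc17 array (1421 genes in all) and without the first CTL array (1538 in all). A group left with 1 array was assumed to vary like the other. The intensity trend left 2 ribosomal protein genes lower. With shared rows admitted, 75 ribosomal protein genes were tested with a median of -0.0205, and those called lower were *Rps27l*, *Rpl7l1* and the shared row of *Rpl22l1*, but not *Rpl12*. The cause of these changes was not tested.

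With the replicate number as a block, 2322 genes were called against 2342 without it, and the same 3 ribosomal protein genes were lower. Deviations of same-numbered arrays correlated at 0.0195 across all genes tested, so the numbers were not taken to pair the samples. Of 59 ribosomal protein genes, 56 were brighter on the first Tc17 array and 45 on the first CTL array. Whether replicates pair for these genes was not tested. Of the genes named that had been called, *Npm1* alone lost its call under the block (adjusted p = 0.0507 in limma). With 2 arrays per group, the unadjusted 95% intervals had a median half-width of 0.285, so smaller differences could not be resolved. Some larger ones missed the adjusted threshold as well, such as *Rpl30* at -0.34 (adjusted p = 0.121 in limma).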
